A study of Mus musculus with 7 samples.

Results

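The genes described here encode translation initiation factors and the proteins that bind or phosphorylate them. They were taken as the protein-coding genes of the GENCODE vM21 annotation whose symbols start with Eif and a digit and that had at least 10 counts in 3 or more libraries. This gave 53 genes of 55 with such a symbol, among 48795 gene identifiers in the count table. The other two, the Y-linked Eif2s3y and the oocyte gene Eif4e1b, had 0 counts in every library. The 7 libraries come from B cells sorted from the light zone, where germinal centre B cells present captured antigen to T cells, taken from mouse spleens 10 days after an intravenous dose of sheep red blood cells. Of these, 3 were labelled MIZ1KO and 4 Control, and RNA was measured by sequencing of bulk polyA RNA. The sample titles carry MizFF for the MIZ1KO and eYFP for the Control libraries. The alleles behind these names, any Cre driver, and the age and sex of the mice are not given, nor is whether each library came from its own animal. The p-values therefore measure the spread between these libraries, which may be in part technical. MIZ1, encoded by Zbtb17, is a zinc finger transcription factor, an activator by itself and a repressor in complex with MYC, and the comparison asks how its loss changed the transcripts of these cells.

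In the scanning model of initiation, eIF2 carries the initiator methionyl-tRNA to the small ribosomal subunit, which eIF1, eIF1A and the large scaffold eIF3 prepare for mRNA. The cap-binding protein eIF4E, the scaffold eIF4G and the helicase eIF4A form eIF4F, which recruits the mRNA, and eIF5 and eIF5B complete the joining of the large subunit. Regulation acts mainly at the cap, where 4E-BP proteins hold eIF4E until mTORC1 phosphorylates them, and at eIF2, where stress kinases phosphorylate the alpha subunit and so block its exchange factor eIF2B. B cells that receive T cell help in the light zone raise MYC and mTORC1 activity and grow, and many genes of the translation machinery are known MYC targets.

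The libraries held 3087979 to 5084984 estimated counts outside ribosomal RNA models, which took 46.4% to 56.1% of all counts. Levels are given in CPM, each count as a share of its library scaled to a common size, on library sizes after TMM scaling. These sizes include ribosomal RNA counts. The levels per exonic length below, and the shares given as without or outside ribosomal RNA, do not. Germinal centre B cell markers were present in every library, with a summed level of 3222 to 3464 CPM over 10 genes in MIZ1KO and 2427 to 3538 CPM in Control. The 6 light zone markers summed to 618 to 729 CPM in MIZ1KO and 558 to 868 CPM in Control. The 5 dark zone markers summed to 288 to 351 CPM in MIZ1KO and 308 to 314 CPM in Control. For 5 plasma cell markers (Sdc1, Prdm1, Irf4, Jchain and Xbp1) the sums were 177 to 255 CPM in MIZ1KO and 205 to 377 CPM in Control. For 3 follicular dendritic cell markers (Cxcl13, Clu and Fcer2a) they were 252 to 307 CPM and 232 to 259 CPM. The part of each gene in these sums was not examined, so they do not measure plasma or follicular dendritic cell content. The 6 T cell markers summed to 1.72 to 16.9 CPM in MIZ1KO and 0.131 to 1.56 CPM in Control, so the groups did not overlap at these low levels. The 5 myeloid markers summed to 2.90 to 21.1 CPM and 3.42 to 7.22 CPM, with C1qa at 0 throughout. The 5 erythroid markers summed to 35.4 to 361 CPM in MIZ1KO and 70.9 to 284 CPM in Control. Models of the annotation class TEC, loci whose existence awaits experimental proof, took 0.544% to 0.923% of the counts outside ribosomal RNA models in MIZ1KO and 1.02% to 2.58% in Control, again without overlap. The part of these shares in the results below was not tested beyond the fits named with them. Zbtb17 itself, counted over the whole gene, was at 3.70 to 5.16 CPM in MIZ1KO and 3.15 to 7.02 CPM in Control, which does not check the labels since transcript outside a deleted part would still be counted.

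Of the 53 initiation factor genes, 5 were higher in MIZ1KO and 0 lower at an adjusted p under 0.05 (quasi-likelihood test of edgeR, adjusted over all genes tested); DESeq2 also gave 5 higher and 0 lower, and limma-voom 1 higher and 0 lower. The 5 that passed in edgeR were Eif4ebp2, which encodes a repressor of the cap-binding protein, Eif4g1, the main scaffold of eIF4F, the eIF3 subunit genes Eif3c and Eif3f, and Eif2ak1, the heme-regulated kinase of eIF2. Among all 11618 genes tested, 5.96% passed in either direction and 1.9% were higher, against 9.43% of the initiation factor genes. At an unadjusted p under 0.05, 11 of the 53 were higher and 1 lower, where 9.92% of all genes were higher and 14.7% lower. In 11 genes every MIZ1KO library lay above every Control library (8.74% of all genes), and in 1, Eif4a2, every MIZ1KO library lay below (10.8% of all genes). In all, 38 of the 53 log2 fold changes were above 0, or 71.7%, and their median was 0.23. Over protein-coding genes 52.5% were above 0, with a median of 0.03, 2.08% passed as higher and 9.89% lay higher without overlap. Of the 9812 protein-coding genes tested, 1098 were higher and 981 lower at an unadjusted p under 0.05 (edgeR). In this class 202 passed as lower and 7.93% lay lower without overlap. These shares are the closer comparison, since all 53 genes are protein-coding. The 53 genes together took 1.202, 1.11 and 1.13% of the counts without ribosomal RNA in MIZ1KO replicates 1, 2 and 3 and 1.19, 1.06, 0.942 and 1.00% in Control replicates 1 to 4, so the summed share overlapped. In bulk RNA, a change in the mix of cells and a change in RNA per cell cannot be told apart. The 5 calls were not stable to the choice of libraries: 0 of the 53 genes passed without MIZ1KO replicate 1, MIZ1KO replicate 3 or Control replicate 2, 1 passed without Control replicate 4, and 9 passed without Control replicate 1, all 9 of them higher. In these fits, in that order, 22 of 12047, 66 of 12217, 42 of 11401, 56 of 11143 and 523 of 11378 genes passed as higher. Over all genes, DESeq2 gave 421 of 13032 higher and limma-voom 127 of 11618.

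**Figure D1:**
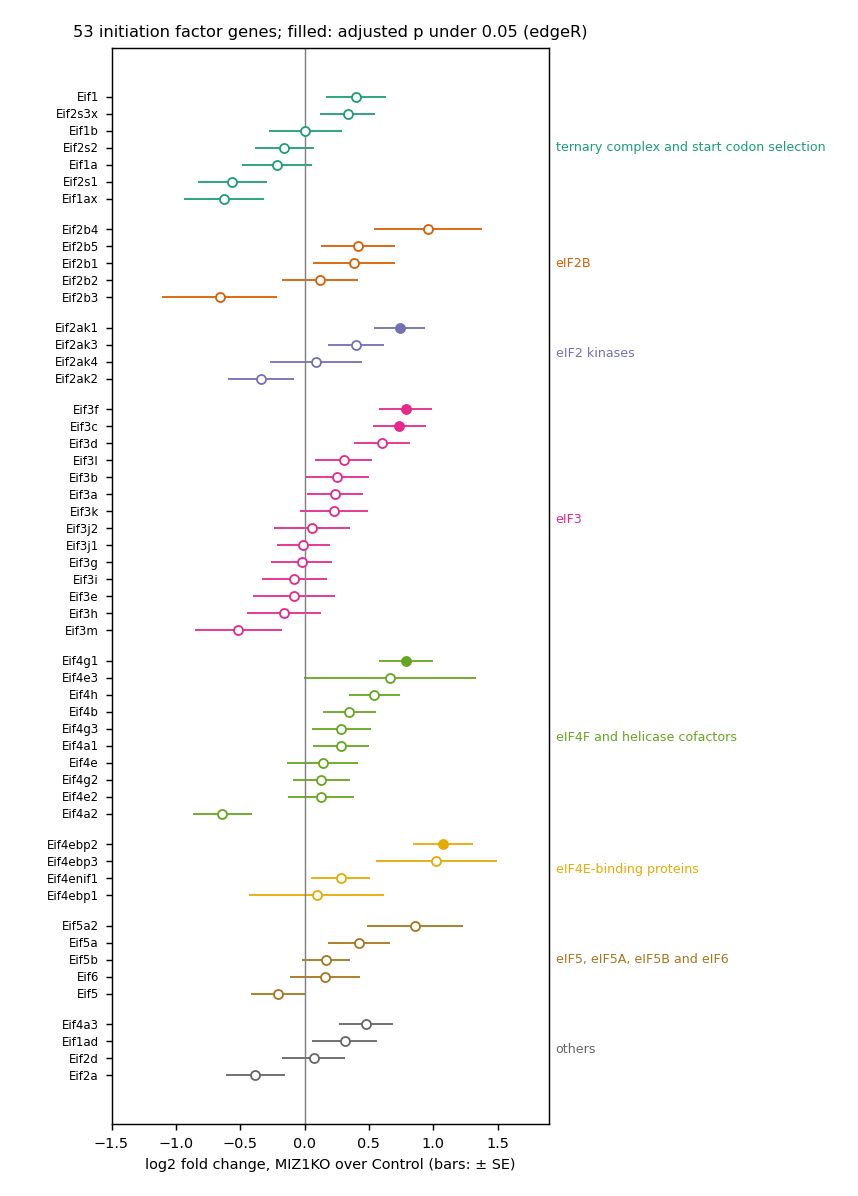
Log2 fold change of MIZ1KO over Control for each of the 53 genes (points, horizontal axis) with its SE (bars), grouped by role; filled points passed an adjusted p under 0.05 in edgeR. The 5 filled points all lie right of 0, and 38 of 53 points do.

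At the cap, the largest fold change that passed was that of Eif4ebp2, one of the paralogous 4E-BP genes, whose protein competes with eIF4G for eIF4E. Eif4ebp2 (ENSMUSG00000020091; chromosome 10, from 61428491 to 61452661 in GRCm38) measured 119, 76.0 and 148 CPM in MIZ1KO replicates 1, 2 and 3 and 49.2, 51.2, 47.6 and 67.7 CPM in Control replicates 1 to 4. Every MIZ1KO library was above every Control library, with replicate 2 the nearest to them. The group means were 114 ± 36.4 CPM (SD, n = 3) and 53.9 ± 9.28 CPM (SD, n = 4). On the log2 scale the groups differed by 1.08 ± 0.23 (SE; edgeR adjusted p = 0.0166). Eif4ebp1, the best-studied 4E-BP, was low in these cells, at 9.03, 6.39 and 1.61 CPM against 10.8, 2.33, 3.54 and 5.51 CPM. Its groups overlapped, with MIZ1KO replicate 3 below every Control library (log2 fold change 0.09 ± 0.53, edgeR adjusted p = 0.936). Eif4ebp3 had 4.94, 5.495 and 7.24 CPM against 3.54, 1.24, 2.10 and 4.01 CPM, which did not overlap, with a log2 fold change of 1.02 ± 0.47 that did not pass (edgeR adjusted p = 0.189). It had only 8 to 55 counts per library, and 67.3% of its exonic bases are shared with the same-strand model AC115631.1, so its count is uncertain. Eif4enif1, which encodes 4E-T, the protein that carries eIF4E into the nucleus, differed by 0.28 ± 0.23 on the log2 scale (edgeR adjusted p = 0.487). Per exonic length, on a scale of counts per kilobase scaled to the same total in each library without ribosomal RNA, the level in Control was 55.3 ± 14.7 for Eif4ebp2, 21.52 ± 10.3 for Eif4ebp3 and 14.1 ± 7.43 for Eif4ebp1, so that Eif4ebp2 had the highest mean of the 4E-BP genes. Eif4ebp2 no longer passed when MIZ1KO replicate 1 was left out (edgeR adjusted p = 0.0861), nor without MIZ1KO replicate 3 (0.0715) or Control replicate 2 (0.0524), with log2 fold changes of 0.86 to 1.36 when any single library was left out.

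**Figure D2:**
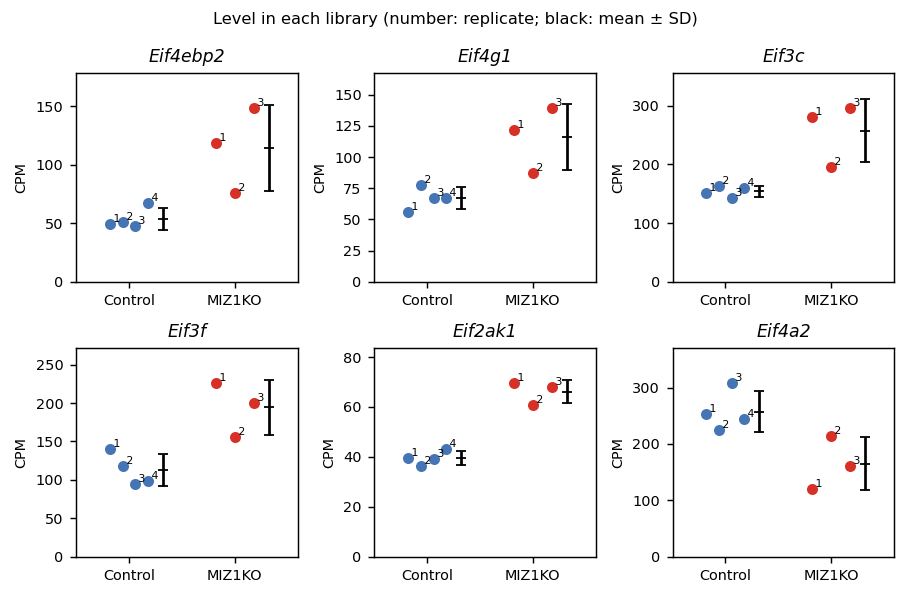
CPM in each library (points, numbered by replicate) for the 5 genes that passed and for Eif4a2, the only one of the 53 with all MIZ1KO libraries below all Control libraries; black bars give the mean and SD. In the first 5 panels no MIZ1KO point reaches down to a Control point, and MIZ1KO replicate 2 is the lowest of its group.

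Within eIF4F itself, the scaffold gene Eif4g1 rose, while the paralogous helicase genes Eif4a1 and Eif4a2 lay on opposite sides of 0. Eif4g1 (ENSMUSG00000045983; chromosome 16, from 20668313 to 20692884) measured 122, 87.0 and 139 CPM in MIZ1KO and 56.1, 77.6, 67.5 and 67.2 CPM in Control, without overlap. Its means were 116 ± 26.6 and 67.1 ± 8.78 CPM (log2 fold change 0.79 ± 0.21, edgeR adjusted p = 0.0353). Its paralog Eif4g3 measured 0.29 ± 0.23 (edgeR adjusted p = 0.470), and Eif4g2, which lacks the eIF4E-binding part and serves cap-independent initiation, 0.13 ± 0.22 (edgeR adjusted p = 0.771). Eif4g2 was the most abundant gene of the eIF4F group per exonic length, at 373 ± 35.9 in MIZ1KO and 354 ± 24.1 in Control. The helicase gene Eif4a2 (chromosome 16, from 23107444 to 23114136) had 121, 214 and 160.2 CPM in MIZ1KO and 252, 224, 308 and 244 CPM in Control. Its MIZ1KO libraries all lay below the Control libraries, yet its log2 fold change of -0.64 ± 0.23 did not pass (edgeR adjusted p = 0.0942). With a correction for GC content and length it was -0.31 (edgeR adjusted p = 0.368). With the index of nuclear RNA described below as a covariate it was -0.26 (edgeR adjusted p = 0.840). Eif4a1, the form that supplies most eIF4A in growing cells, measured 242, 218 and 188 CPM against 226, 187, 126 and 171 CPM, which overlapped (log2 fold change 0.28 ± 0.22, edgeR adjusted p = 0.453). The ratio of Eif4a1 to Eif4a2 per exonic length was 2.47, 1.25 and 1.44 in MIZ1KO replicates 1, 2 and 3 and 1.10, 1.03, 0.505 and 0.860 in Control replicates 1 to 4. The ratio did not overlap between the groups; it was chosen after the values were seen and was not tested. Small nucleolar RNA models share bases with exons of both helicase genes, and the pseudogene Eif4a-ps4 held 26 to 105 counts per library, so reads shared with these models are uncertain.

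The other genes of this group encode the cap-binding proteins and the helicase cofactors, and none passed. Eif4h, a cofactor that stimulates eIF4A, measured 115, 114 and 134 CPM against 98.5, 87.9, 67.3 and 78.2 CPM and did not overlap between the groups (log2 fold change 0.54 ± 0.20, edgeR adjusted p = 0.0984). Eif4b, the other cofactor and a substrate of S6 kinase, had 299, 228 and 245 CPM against 217, 226, 173 and 194 CPM, where the lowest MIZ1KO library was just above the highest Control library (0.35 ± 0.20, edgeR adjusted p = 0.302). The cap-binding gene Eif4e overlapped between the groups, at 40.3, 59.9 and 42.0 CPM against 60.6, 54.6, 31.6 and 26.9 CPM, with a log2 fold change of 0.14 ± 0.28. Its homologue Eif4e2, which binds caps in repressor complexes, gave 0.13 ± 0.26. Eif4e3 was near the limit of detection, with 4 to 30 counts per library, and shares 14.8% of its exonic bases with the same-strand model Gm20696. In the eIF4F group as a whole, 9 of 10 log2 fold changes were above 0 and the median was 0.29.

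Promoter windows of the genes that rose are shown because MYC, with which MIZ1 acts, binds the E-box CACGTG as a dimer with MAX, and beside them those of the helicase pair. Each window is from RefSeq (GRCm38.p6), runs from 250 bases before to 50 bases after an annotated start, and is written 5′ to 3′ on the gene's strand, with every CACGTG in capitals. In the order of the lines, the windows lie at chr10:61452620-61452919 (minus strand), chr16:20672477-20672776 (plus strand), chr7:126566317-126566616 (minus strand), chr7:108934165-108934464 (plus strand), chr5:143817542-143817841 (plus strand), chr11:69672374-69672673 (minus strand) and chr16:23107218-23107517 (plus strand).
Eif4ebp2: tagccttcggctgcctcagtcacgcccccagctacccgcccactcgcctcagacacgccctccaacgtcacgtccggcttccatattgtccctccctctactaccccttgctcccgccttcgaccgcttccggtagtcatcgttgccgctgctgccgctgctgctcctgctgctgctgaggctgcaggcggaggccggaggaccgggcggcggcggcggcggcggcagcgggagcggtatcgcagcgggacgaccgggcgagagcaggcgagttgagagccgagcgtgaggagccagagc
Eif4g1: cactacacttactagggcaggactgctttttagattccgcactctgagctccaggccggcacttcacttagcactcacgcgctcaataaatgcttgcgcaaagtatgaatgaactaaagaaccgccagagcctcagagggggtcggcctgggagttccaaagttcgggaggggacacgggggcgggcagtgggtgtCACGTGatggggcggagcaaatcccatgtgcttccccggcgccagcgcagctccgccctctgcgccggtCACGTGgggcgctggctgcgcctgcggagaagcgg
Eif3c: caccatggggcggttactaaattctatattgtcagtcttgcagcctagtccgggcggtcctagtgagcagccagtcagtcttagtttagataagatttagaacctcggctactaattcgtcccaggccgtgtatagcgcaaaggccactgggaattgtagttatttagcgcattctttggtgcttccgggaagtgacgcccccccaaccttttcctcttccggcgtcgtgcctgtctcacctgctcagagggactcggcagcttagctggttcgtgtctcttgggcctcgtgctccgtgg
Eif3f: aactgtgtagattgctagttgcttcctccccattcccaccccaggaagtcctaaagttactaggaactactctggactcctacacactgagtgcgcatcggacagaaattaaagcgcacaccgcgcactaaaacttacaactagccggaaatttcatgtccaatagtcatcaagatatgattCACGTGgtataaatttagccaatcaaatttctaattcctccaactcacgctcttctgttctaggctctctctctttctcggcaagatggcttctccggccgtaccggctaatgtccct
Eif2ak1: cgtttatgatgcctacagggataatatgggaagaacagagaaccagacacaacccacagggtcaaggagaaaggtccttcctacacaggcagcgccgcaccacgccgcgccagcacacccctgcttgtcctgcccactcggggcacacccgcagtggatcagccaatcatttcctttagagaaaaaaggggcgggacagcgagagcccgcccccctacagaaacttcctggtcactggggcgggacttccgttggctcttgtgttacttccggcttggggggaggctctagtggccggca
Eif4a1: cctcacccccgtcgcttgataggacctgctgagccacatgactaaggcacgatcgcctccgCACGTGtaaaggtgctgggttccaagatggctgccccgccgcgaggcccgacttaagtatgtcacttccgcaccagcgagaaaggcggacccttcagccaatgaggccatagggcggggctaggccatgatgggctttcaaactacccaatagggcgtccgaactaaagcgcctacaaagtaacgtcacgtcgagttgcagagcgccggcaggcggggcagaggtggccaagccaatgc
Eif4a2: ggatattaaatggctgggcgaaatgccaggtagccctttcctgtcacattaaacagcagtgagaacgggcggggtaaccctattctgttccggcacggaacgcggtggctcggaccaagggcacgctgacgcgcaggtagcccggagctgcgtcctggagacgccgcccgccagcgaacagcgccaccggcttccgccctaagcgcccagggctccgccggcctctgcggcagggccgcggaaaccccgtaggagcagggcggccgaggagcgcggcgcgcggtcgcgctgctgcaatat

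CACGTG, which reads the same on both strands, occurred at 2 places in the Eif4g1 window, starting 54 bases before and at base 16 after the start, and in the Eif3f window 68 bases before the start. The Eif4a1 window held it 189 bases before the start, and these letters were not in the windows of Eif4a2, Eif4ebp2, Eif3c and Eif2ak1. Of 42 initiation factor genes with a window counted here, 10 held CACGTG in at least 1 window, or 23.8%. By the same count it was 12.3% of 7803 tested protein-coding genes and 8.09% of all 27025 genes with a window. Counted by single window, 7.15% of all 32851 windows held it. The 10 were Eif1b, Eif3a, Eif3f, Eif3k, Eif4a1, Eif4e, Eif4g1, Eif4h, Eif5a and Eif5a2. Their log2 fold changes ran from close to 0 for Eif1b to 0.86 for Eif5a2 with a median of 0.35, and those of the other 32 from -0.64 to 1.08 with a median of 0.27. These are counts of letters in a window and were not tested against the fold changes. Windows on chromosome 18, where Eif1a, Eif3j2 and Eif4ebp3 lie, were left out for the initiation factor genes but not for the comparison shares.

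Among the subunits of eIF3, the largest initiation factor, Eif3c and Eif3f rose and the other 12 genes did not pass. Eif3c, a core subunit that binds eIF1 and eIF5 (ENSMUSG00000030738; chromosome 7, from 126546455 to 126566411), measured 281, 195 and 296 CPM in MIZ1KO and 151, 163, 143 and 160.0 CPM in Control. The Control libraries were close together and all MIZ1KO libraries were higher (log2 fold change 0.74 ± 0.20, edgeR adjusted p = 0.0421). Eif3f, one of the subunits with an MPN domain (ENSMUSG00000031029; chromosome 7, from 108934417 to 108942951), measured 226, 156 and 200.4 CPM against 140.3, 117, 95.0 and 98.2 CPM. Here the Control libraries were spread more widely and still lay below all MIZ1KO libraries (0.79 ± 0.21, edgeR adjusted p = 0.036). Eif3d, the subunit that can itself bind caps, had 78.2, 73.8 and 82.4 CPM against 72.5, 46.4, 43.2 and 44.0 CPM. The MIZ1KO libraries were above all Control libraries, with Control replicate 1 close to them, and the log2 fold change of 0.60 ± 0.22 did not pass (edgeR adjusted p = 0.100). An antisense model, Gm17638, covers 43.3% of the exonic bases of Eif3d, and without a stated strand setting the reads of the pair cannot be told apart. As counted, Gm17638 had a mean of 1.26 CPM in MIZ1KO and 4.34 CPM in Control (-2.03 ± 0.69, edgeR adjusted p = 0.0822).

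The remaining eIF3 genes spanned log2 fold changes from -0.52 for Eif3m to 0.30 for Eif3l, and in all 8 of 14 were above 0 with a median of 0.15. The spread between Control libraries was wide here. Eif3m measured 269.9, 159, 82.8 and 112 CPM in Control replicates 1 to 4, Eif3e 483, 281, 137 and 254 CPM and Eif3h, the most abundant eIF3 transcript per exonic length, 382, 276, 128 and 187 CPM. In each of these 3 genes Control replicate 1 was the highest and Control replicate 3 the lowest of its group. In MIZ1KO, Eif3m had 77.6, 169 and 79.3 CPM, Eif3e had 228, 377 and 212 CPM and Eif3h had 197, 245 and 211 CPM. These values were within the Control range apart from MIZ1KO replicates 1 and 3 of Eif3m, which lay just below it. Control replicate 1 was the highest and Control replicate 3 the lowest Control library in 10 of 14 eIF3 genes and in 26 of the 53 genes (49.1%), against 19.5% of tested protein-coding genes. Cytosolic ribosomal protein genes were ordered in this way in 76 of 79 cases. Their share of the counts without ribosomal RNA was 15.03, 12.9, 7.03 and 10.7% in Control replicates 1 to 4 and 10.1, 12.6 and 9.99% in MIZ1KO replicates 1, 2 and 3. The part of this library difference in the eIF3 levels was not tested.

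**Figure D3:**
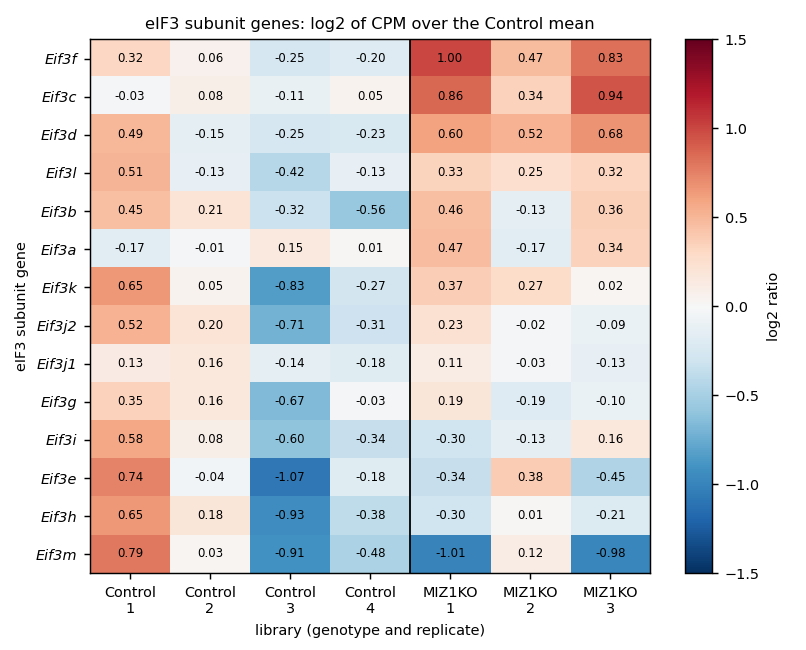
Log2 of CPM over the gene's Control mean for the 14 eIF3 subunit genes (rows, ordered by fold change) in each library (columns, Control left of the line). Eif3f, Eif3c, Eif3d, Eif3l and Eif3k are above the Control mean in all 3 MIZ1KO libraries, and from Eif3k downward most rows run from high in Control replicate 1 to low in Control replicate 3.

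On the eIF2 side, the kinase gene Eif2ak1 rose, and the genes of eIF2 and eIF2B did not pass. Eif2ak1 encodes HRI, which phosphorylates eIF2 alpha when heme is short and when mitochondria are stressed (ENSMUSG00000029613; chromosome 5, from 143817788 to 143904251). It measured 69.6, 60.7 and 68.2 CPM in MIZ1KO and 39.5, 36.6, 39.0 and 43.3 CPM in Control, and both groups were narrow, with a wide gap between them. The difference was 0.74 ± 0.20 on the log2 scale (edgeR adjusted p = 0.0361), and Eif2ak1 was also the most abundant of the 4 kinase genes per exonic length, at 65.6 ± 8.05 in MIZ1KO and 41.4 ± 8.60 in Control. The opposite-strand gene Aimp2 shares 8.59% of its exonic bases and measured -0.03 ± 0.34 (edgeR adjusted p = 0.970). Eif2ak3, which encodes the endoplasmic reticulum stress kinase PERK, had 39.7, 40.1 and 49.4 CPM against 33.7, 28.5, 37.4 and 30.2 CPM, which did not overlap and did not pass (0.40 ± 0.22, edgeR adjusted p = 0.262). The opposite-strand TEC model Gm43292 covers 8.05% of it and fell by 2.07 on the log2 scale (edgeR adjusted p = 0.017). Eif2ak4, the amino acid sensor GCN2, measured 0.09 ± 0.36, and Eif2ak2, the interferon-induced double-stranded RNA sensor PKR, -0.34 ± 0.26, with edgeR adjusted p-values of 0.912 and 0.446.

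The fold changes of the eIF2 and eIF2B subunits lay on both sides of 0. Eif2s1, the alpha subunit that the kinases phosphorylate, had 64.9, 100.1 and 72.7 CPM in MIZ1KO and 182, 123, 85.3 and 79.0 CPM in Control, which overlapped (log2 fold change -0.56 ± 0.27, edgeR adjusted p = 0.205). The beta subunit gene Eif2s2 measured -0.16 ± 0.23 and the X-linked gamma subunit gene Eif2s3x 0.33 ± 0.21, with edgeR adjusted p-values of 0.720 and 0.351. Of the exchange factor eIF2B, 4 of 5 genes were above 0 with a median of 0.38, and 0 passed with edgeR or DESeq2, with 1 of 5 at an unadjusted p under 0.05. Eif2b4, its delta subunit, had 10.96, 5.70 and 6.76 CPM against 3.02, 4.82, 3.54 and 4.71 CPM. These low groups did not overlap and the fold change did not pass (0.96 ± 0.42, edgeR adjusted p = 0.166), and the opposite-strand gene Snx17, which shares 7.85% of its exonic bases, measured 0.70 ± 0.23. Eif2b3, the gamma subunit, measured -0.66 ± 0.45 on 13 to 79 counts per library (edgeR adjusted p = 0.386). Eif2b2, the beta subunit and the most abundant of the 5 per exonic length, stood at 39.5, 18.5, 18.8 and 20.9 CPM in Control, with replicate 1 far above the others, and at 33.5, 23.7 and 22.0 CPM in MIZ1KO.

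The factors of start codon selection and subunit joining gave 0 calls with edgeR or DESeq2, and only Eif5a2 had an unadjusted p under 0.05 (edgeR). Eif1, which keeps the scanning complex open, was the most abundant of the start codon group per exonic length. It had 154, 151 and 136 CPM in MIZ1KO, while the Control libraries ran 163, 121, 81.2 and 81.8 CPM and so enclosed them (log2 fold change 0.40 ± 0.23, edgeR adjusted p = 0.306). The X-linked eIF1A gene Eif1ax had 47.0, 57.1 and 39.6 CPM against 125, 75.9, 34.5 and 61.8 CPM (-0.63 ± 0.31, edgeR adjusted p = 0.221), and its autosomal copy Eif1a measured -0.22 ± 0.27; reads of such close copies may be divided with error. Eif5a, whose hypusine-modified protein helps ribosomes through proline-rich stretches, measured 243, 195 and 196 CPM against 230.4, 162, 103 and 136 CPM. Control replicate 1 lay within the MIZ1KO range and the other Control libraries below it (0.42 ± 0.24, edgeR adjusted p = 0.291). Its rare paralog Eif5a2 had 9.24, 15.1 and 10.9 CPM against 4.07, 10.6, 6.04 and 5.91 CPM (0.86 ± 0.38, edgeR adjusted p = 0.168). Eif5, the GTPase activator of eIF2, measured -0.21 ± 0.21, Eif5b, the GTPase of subunit joining, 0.17 ± 0.19, and Eif6, which keeps the large subunit apart until it is mature, 0.16 ± 0.27. Among genes that share the name and act elsewhere, Eif4a3, the helicase of the exon junction complex, measured 0.48 ± 0.21 (edgeR adjusted p = 0.173), and Eif2a, a monomeric factor of alternative initiation, -0.38 ± 0.23 (edgeR adjusted p = 0.315).

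Per exonic length in Control, the highest levels of the 53 genes were 838 ± 242 for Eif3h, 376 ± 63.4 for Eif5a, 354 ± 24.1 for Eif4g2, 333 ± 117 for Eif3m and 301 ± 52.4 for Eif1 (mean ± SD, n = 4). Eif3h stood above Eif5a by more than the SD of either, while Eif5a, Eif4g2, Eif3m and Eif1 lay within an SD of their neighbour in the order. At the other end were Eif4e3 at 2.75 ± 1.31, Eif2b3 at 7.27 ± 3.52, Eif2ak4 at 7.66 ± 3.43 and Eif5a2 at 7.81 ± 3.10, of which Eif2b3, Eif2ak4 and Eif5a2 did not differ beyond their spread. Within eIF3, levels ran from 43.9 ± 4.10 for Eif3j1 through 46.3 ± 9.10 for Eif3j2, the paralogs that encode the loosely attached subunit, and 59.6 ± 8.24 for Eif3d up to that of Eif3h. Such levels depend on the annotated exonic length, which counts every exon of any transcript model and so understates genes with long rare exons.

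Outside the Eif symbols, a list of 35 partners and regulators of initiation had 34 genes tested, of which 1 rose and 1 fell. The median log2 fold change was 0.10, with 19 of 34 above 0 (55.9%, against 52.5% of protein-coding genes tested). The 1 that rose is 2.94% of the list, where 2.08% of protein-coding genes passed as higher. As lower, 202 of 9812 protein-coding genes passed. Mknk2, which encodes MNK2, the kinase that docks on eIF4G and phosphorylates eIF4E, rose from 66.1 ± 12.96 to 137 ± 14.6 CPM. Its libraries were at 146, 120.0 and 145 CPM in MIZ1KO and 83.0, 69.5, 55.3 and 56.7 CPM in Control, apart by a wide gap (log2 fold change 1.05 ± 0.20, edgeR adjusted p = 0.0127). Paip2b, which encodes an inhibitor of poly(A)-binding protein, fell from 21.3 ± 1.54 to 10.3 ± 0.983 CPM, with 10.9, 10.9 and 9.17 CPM in MIZ1KO and 22.6, 22.4, 21.0 and 19.2 CPM in Control (-1.03 ± 0.27, edgeR adjusted p = 0.036). Mknk1, the paralog of Mknk2, measured -0.25 ± 0.40 and the mTOR kinase gene Mtor -0.13 ± 0.26. Atf4, the transcription factor whose translation rises when eIF2 alpha is phosphorylated, measured 0.66 ± 0.20 (edgeR adjusted p = 0.0628). Of 24 elongation and termination factors, 20 were tested, and 13 of these (65%) were above 0 with a median of 0.17. Only 1 rose (5%, against 2.08% of protein-coding genes): Tufm, the mitochondrial elongation factor Tu. Tufm had 44.4, 29.5 and 50.2 CPM in MIZ1KO and 20.6, 21.2, 15.4 and 20.7 CPM in Control (1.08 ± 0.25, edgeR adjusted p = 0.0212). Eef2, the cytosolic translocase, had 1056, 659.8 and 1251 CPM against 706, 645, 509 and 498 CPM and did not pass (0.75 ± 0.26, edgeR adjusted p = 0.0892). Mknk2 no longer passed when MIZ1KO replicate 1 was left out (edgeR adjusted p = 0.071), and the calls of Paip2b and Tufm ended in 6 and 4 of the 7 fits that leave out 1 library. With a correction for GC content and length, Mknk2 was 0.43 (edgeR adjusted p = 0.208), Tufm 0.64 (0.136) and Paip2b -0.99 (0.0507), and none of the 3 passed. With the index of nuclear RNA described below as a covariate, none passed either, at 0.50 for Mknk2 (edgeR adjusted p = 0.609), 1.00 for Tufm (0.442) and -1.32 for Paip2b (0.333).

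Across the 53 genes the fold change went with base composition. The Pearson correlation between the GC content of the longest transcript and the log2 fold change was 0.53 over these genes and 0.41 over the 9812 protein-coding genes tested, and with log2 exonic length it was -0.20 in both. These correlations are across genes that share the same 7 libraries and are a description only. Of the 5 genes with the lowest fold changes, Eif4a2, Eif1ax, Eif2s1 and Eif3m had 40.2, 39.7, 40.8 and 38.8% GC and Eif2b3 had 46.8%. The 5 that rose had 49.2% (Eif2ak1) to 54.2% (Eif4g1), all above the median of 49.1% over protein-coding genes. The median was 49.77% over the 53 genes and 49.84% over these 5, and Eif2ak1 and Eif3c (49.63%) lay below the former. With a correction for GC content and length, Eif4ebp2, Eif3f and Eif2ak1 kept their calls, with log2 fold changes of 0.86, 0.70 and 0.68. Eif4g1 (0.52, edgeR adjusted p = 0.105) and Eif3c (0.64, edgeR adjusted p = 0.0569) lost theirs.

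**Figure D4:**
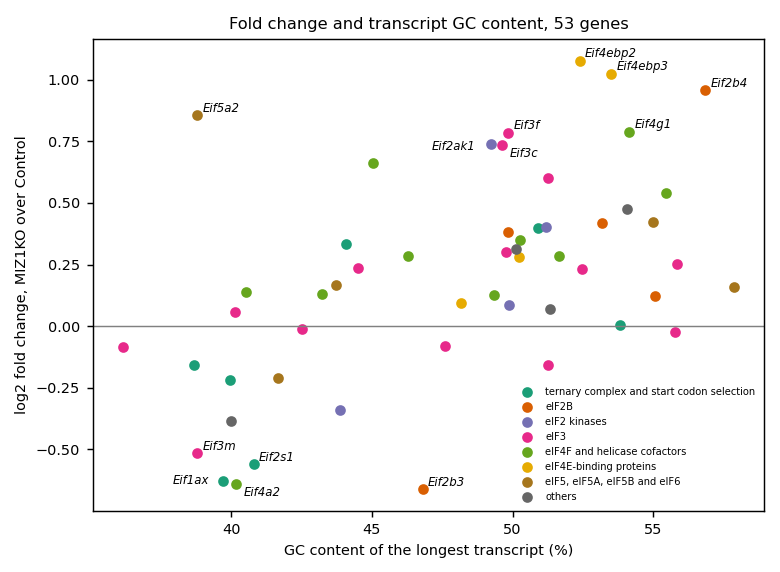
Log2 fold change of MIZ1KO over Control (vertical axis) against the GC content of the longest transcript in percent (horizontal axis) for the 53 genes, coloured by role. Genes near 40% GC lie mostly below 0 and those above 49% mostly above it, with Eif5a2 at the upper left apart from the rest.

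The share of nuclear RNA also moved with the groups. With an index of it as a covariate (summed Malat1, Neat1, Xist and TEC models), 0 of the 53 genes and 2 of all 11618 passed (edgeR). The median log2 fold change of the 53 became -0.48, with 19 above 0. Eif3f shrank to 0.16 (edgeR adjusted p = 0.895), while Eif4ebp2 was 1.48 (0.197), Eif4g1 1.16 (0.253), Eif2ak1 0.77 (0.441) and Eif3c 0.77 (0.426). The index did not overlap between MIZ1KO and Control, so the nuclear RNA share and the genotype cannot be told apart in these libraries. In every setting shown in the plot of fold change by setting, all 5 genes stayed above 0.

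**Figure D5:**
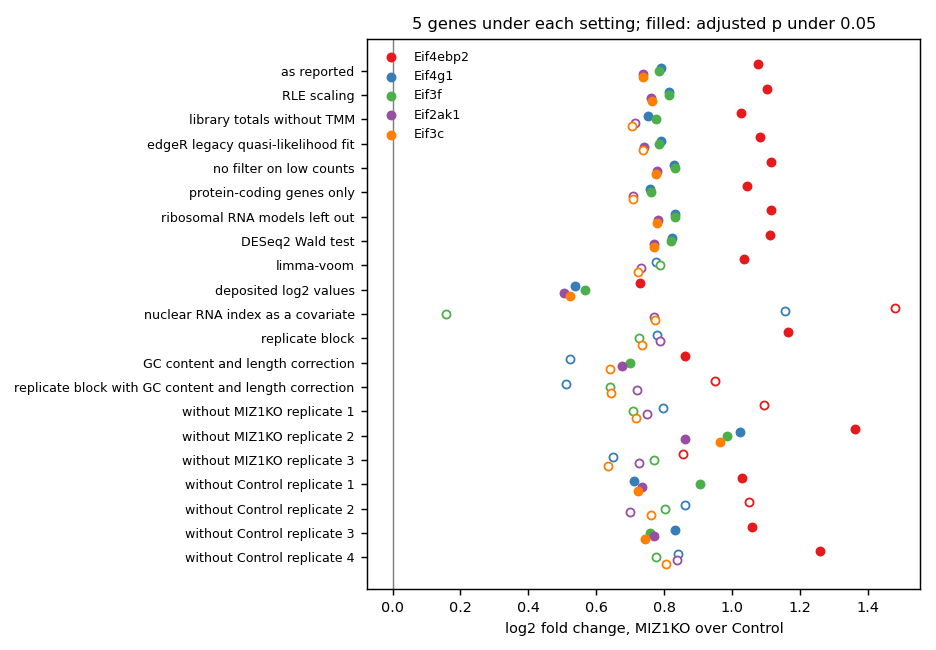
Log2 fold change (horizontal axis) of the 5 genes that rose, as reported (top row) and under each other setting (rows below); filled points passed an adjusted p under 0.05 and open points did not. All points lie right of 0, and most of the open points are in fits that add a covariate or leave out a library.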

How the data were processed

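The authors deposited a table of expected counts, estimated reads per gene without normalization, and a table of log2 values named as variance stabilised; the submitters' processing notes list, without roles, R 3.4.3, RSEM 1.3.0, STAR 2.5.2 and DESeq2 1.18.1. Not given in the sources used here are the strand setting, the annotation release and how multi-gene reads were shared. Of the expected counts, 6.61% were not whole, and all were rounded. GENCODE vM21 supplied symbols, positions, lengths and GC content on GRCm38, the build in those notes. Members, lists and tests were chosen with earlier results of these data known.

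Genes were filtered with filterByExpr, scaled by TMM and compared by genotype with the quasi-likelihood test of edgeR 4.0.16 (robust, not the legacy fit) in R 4.3.3, two-sided, with Benjamini-Hochberg adjustment over 11618 genes; all 53 initiation factor genes passed the filter. Standard errors were derived from the F statistic. DESeq2 1.42.0, limma 3.58.1 (limma-voom, and limma on the deposited log2 values), other scalings, filters, covariates, a loess correction (span 0.4) and fits without each library were alternatives. No pair of libraries of the same group agreed within sampling noise (lowest chi-square per degree of freedom 10.5). Named genes were those that passed, the 2 with the smallest p and the most abundant of each role group, and pathway genes that passed; all others were named after their values were seen. Tests rest on totals of 6896643 to 9482418 counts per library.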

Additional observations from a re-analysis of the deposited data

Results flagged for a closer look

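In 4 of 60 genes and library shares examined, 1 Control library stood apart from the other Control libraries by Dixon's 95% criterion for 4 samples, which chance alone would meet in about 1 of 20. Control replicate 1 had 39.5 CPM of Eif2b2, where the other Control libraries had 18.5 to 20.9 CPM. The same library had 72.5 CPM of Eif3d against 43.2 to 46.4 CPM in the others, and 48.1 CPM of Eif6 against 23.9 to 25.7 CPM. Control replicate 3 had 15.4 CPM of Tufm, below the 20.6 to 21.2 CPM of the other Control libraries. Without Control replicate 1, Eif3d was among the 9 initiation factor genes that passed as higher in MIZ1KO (edgeR).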

How the results depend on the processing

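Of all genes, 692 passed as reported (221 higher and 471 lower). The count was 315 among protein-coding genes only, 1085 with the DESeq2 Wald test, 342 with limma-voom, 2 with the index of nuclear RNA in the model, 288 with the correction for GC content and length (88 higher and 200 lower), and 39 to 1350 with 1 library left out; protein-coding genes alone gave 140 higher and 175 lower. Of the 53 initiation factor genes, 5 passed as reported, 3 with library totals in place of scaling, 3 among protein-coding genes only, 1 with limma-voom (Eif4ebp2), 0 with the nuclear RNA index, 3 with the GC and length correction, and 0 to 9 with 1 library left out. Over all genes, the lowest count came without MIZ1KO replicate 1 and the highest without Control replicate 1; of the 53, 0 passed without MIZ1KO replicate 1, MIZ1KO replicate 3 or Control replicate 2, and 9 without Control replicate 1. The same 5 genes passed with median-of-ratios scaling, without a filter, without ribosomal RNA models, with DESeq2 and on the deposited log2 values. In that order, 264 of 11618, 225 of 19755, 297 of 11617, 421 of 13032 and 219 of 11618 genes passed as higher. With library totals in place of scaling, 184 of 11618 did. All 5 kept their direction in all 20 alternatives, with ranges of 0.73 to 1.48 for Eif4ebp2, 0.51 to 1.16 for Eif4g1, 0.16 to 0.99 for Eif3f, 0.52 to 0.96 for Eif3c and 0.50 to 0.86 for Eif2ak1. Their calls ended in 5, 9, 8, 12 and 10 of these 20.

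With the nuclear RNA index, 19 of the 53 log2 fold changes were above 0 in place of 38. Of the genes named by the rule that had not passed, those below changed sign, none passing: with that index Eif1 (-0.66), Eif2b2 (-1.26), Eif2b3 (0.0473), Eif4a3 (-0.37), Eif4g2 (-0.25) and Eif5a (-0.71); Eif2b2 also with the GC and length correction (-0.23) and between -0.0403 and 0.45 with 1 library left out; and Eif3h between -0.32 and 0.14 in those fits. Beyond the constructions named, the cause was not tested.

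The replicate numbers are shared by the groups without a stated meaning. Deviations from the group means correlated at 0.02, 0.07 and 0.16 for numbers 1, 2 and 3, so not every pair passed 0.1 and the numbers were not taken as pairs. With the replicate block, 476 genes passed in all (131 higher and 345 lower) and 1 of the 53 (Eif4ebp2, higher). With the replicate block and the GC and length correction, 75 passed in all (21 higher and 54 lower) and 0 of the 53, where Eif2b2 was -0.24. Low depth limits Eif4e3, Eif4ebp1 and Eif4ebp3 most.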
